A study of Mus musculus with 7 samples.

Results

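A set of 8 genes of the glucocorticoid response was followed in type 2 innate lymphoid cells (ILC2s) of the mouse heart. They were chosen by gene symbol: the receptor gene Nr3c1 and Fkbp5, Tsc22d3, Ddit4, Per1, Klf9, Sgk1 and Zbtb16. All 8 were found by symbol, each with 1 identifier, among 55335 identifiers in the deposited tables, and all 8 passed the filter on low counts. RNA was sequenced from 3 libraries of naive hearts and from 4 libraries of heart allografts, in a Balb/C to C57BL/6 transplant model with acute rejection. Allografts were taken 7 days after transplantation, and the labels give 7 days for the naive libraries too. Cells were sorted as CD45+, lineage-, ST2+ after mechanical and enzymatic dissociation, and each library pooled the cells of 4 to 7 hearts. The labels give no drug treatment, genotype, sex, age or strain of the naive hearts, and do not say whether the graft cells came from donor or recipient.

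Glucocorticoids are steroid hormones of the adrenal cortex with a daily rhythm and a surge under stress. They enter the cell and bind the glucocorticoid receptor, which is held in the cytoplasm by HSP90 and its cochaperones. The receptor then moves to the nucleus, binds DNA as a dimer at response elements and induces a set of genes shared by many tissues, while it represses cytokine genes in lymphocytes. Several of the induced genes also answer other signals, such as the circadian clock, hypoxia, growth factors or amino acid shortage.

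Naive replicate 2 stood apart from the other libraries in its marker genes. Library totals lay between 29107326 and 53044907 counts. The summed level of 14 ILC2 markers was 1163 CPM (counts scaled to a common library total) in naive replicate 2, against 12298 to 15288 CPM in the other 6 libraries. In the same library 20 of 20 kidney markers had counts and summed to 13895 CPM. The sum was 125 to 550 CPM elsewhere, with 5 to 10 of the 20 markers at 0, and the most abundant were Umod, Kap and Fxyd2. Mitochondrial transcripts took 26.5% of its counts, against 2.04% to 3.11%. The fitted changes of the 8 genes are therefore also given without naive replicate 2. T cell markers summed to 31.1 to 1085 CPM in naive and 1070 to 1271 CPM in allograft libraries (exact two-sided permutation p = 0.0571, adjusted over 11 marker lists 0.157). B cell markers (26.5 to 265 against 320 to 488 CPM) and NK cell markers (17.9 to 190 against 258 to 348 CPM) separated the groups, each with an exact permutation p of 0.0286, the smallest that 7 libraries can give, and an adjusted p of 0.105. Erythroid markers separated them in the other direction (776 to 2937 against 468 to 595 CPM, with the same 2 p-values). The sums of ILC2 (adjusted p = 0.681), kidney (0.314), myeloid (0.825), endothelial (0.825), mast cell, cardiomyocyte and fibroblast markers (each 0.886) overlapped between groups in these exact permutation tests.

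**Figure D1:**
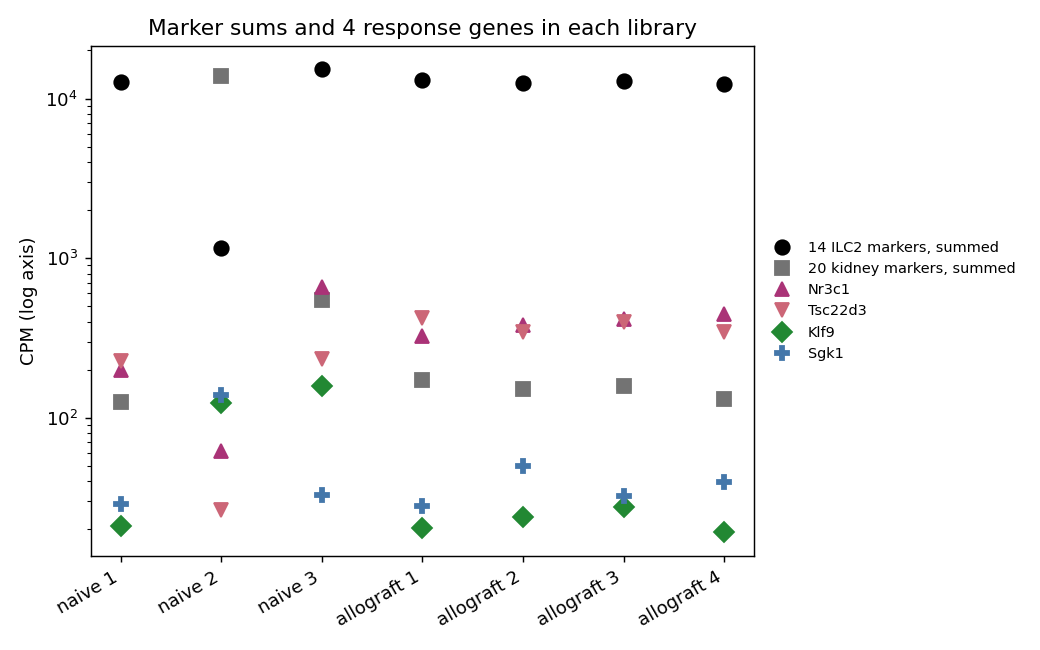
Summed CPM of the 14 ILC2 markers and the 20 kidney markers, with the CPM of 4 response genes, in each library on a log axis; each point is 1 library. Naive replicate 2 holds the lowest ILC2 sum (1163 CPM) and the highest kidney sum (13895 CPM), and also the highest Sgk1 and the lowest Nr3c1 and Tsc22d3.

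The 8 genes shared no direction between the groups. None of the 8 passed an adjusted p of 0.05 in edgeR's quasi-likelihood test over 17015 genes, where 0.0353% of all genes did. At an unadjusted p under 0.05 there were 2 of the 8, Ddit4 higher (6.41% of all genes were) and Klf9 lower (3.86%), together against 10.3% of all genes. With DESeq2 the same 2 passed the adjusted threshold, where 6.4% of genes did. Of the 8 fitted changes 4 were positive and 4 negative. Their median log2 fold change was 0.02, beside -0.01 over all genes tested, and -0.03 beside 0.23 without naive replicate 2. Every allograft library lay above every naive library for 2 genes, Tsc22d3 and Ddit4, against 12.5% of all genes. No member lay below in every allograft library (2.15% of all genes). Without naive replicate 2 again 0 of 8 passed in edgeR (3.1% of all genes), and 3 had an unadjusted p under 0.05, Tsc22d3, Ddit4 and Klf9 (20.2% of all genes). In bulk RNA of sorted cells, fewer cells that express a gene and less RNA per cell cannot be told apart. The series text calls the pools biological replicates, and the p-values measure the spread between these pools.

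**Figure D2:**
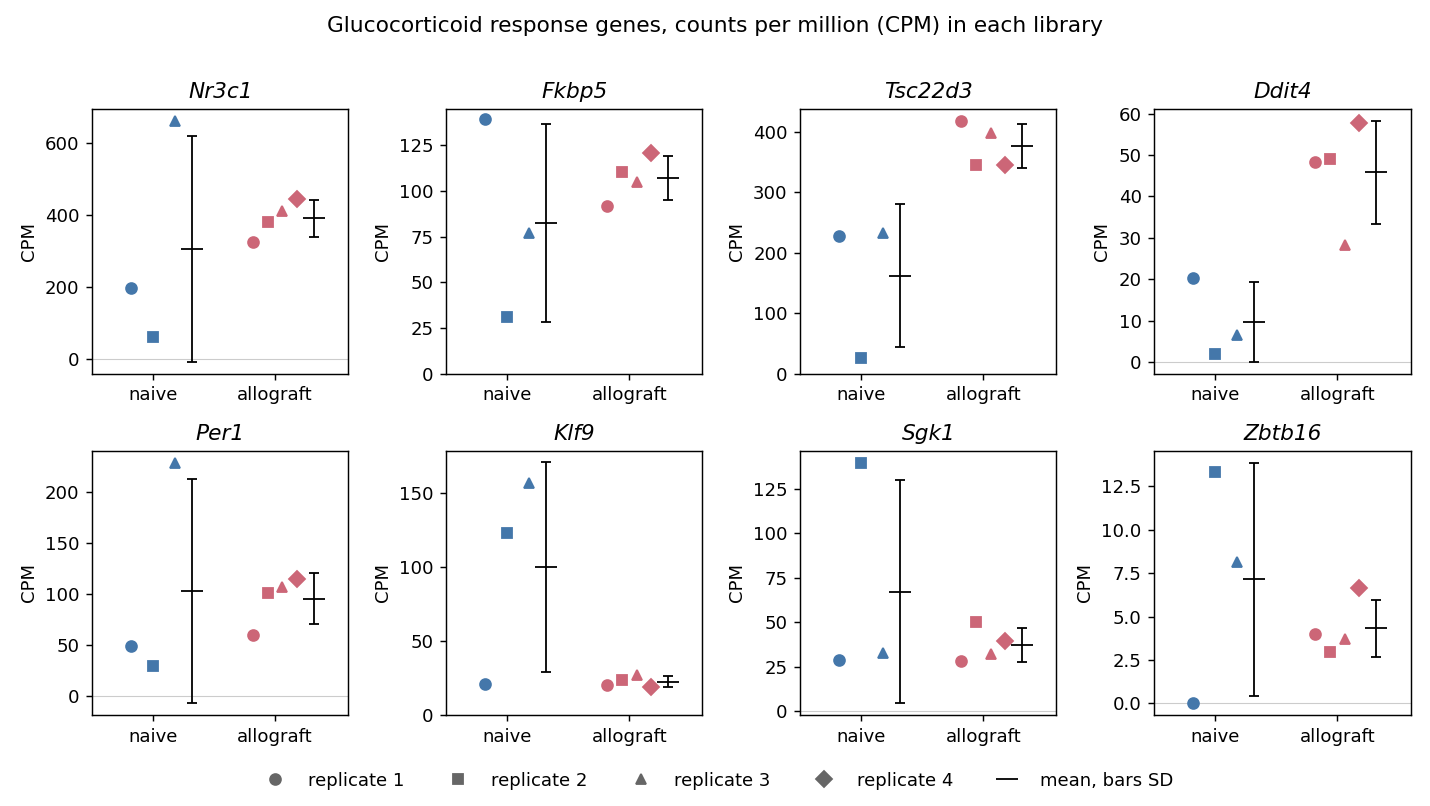
CPM of each of the 8 genes (own vertical axis per panel) in 3 naive and 4 allograft libraries; symbols are libraries, and the black mark with bars is the mean and SD. The groups are separate only for Tsc22d3 and Ddit4. The width of the naive group comes from replicate 2 alone for Tsc22d3 and Sgk1, where replicates 1 and 3 lie close together.

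For each of the 8 genes the naive libraries spread more widely than the allografts. The SD was 65.8% to 107% of the mean among the 3 naive libraries, and 9.78% to 37.7% among the 4 allograft libraries. When naive replicate 2 was left out, this order held for 6 of the 8 genes and turned for the other two. Naive replicates 1 and 3 then differed by an SD of 1.78% of the mean for Tsc22d3 (allografts 9.78%) and 8.96% for Sgk1 (allografts 25.6%). Across the 7 libraries the highest level was between 4.48 times (Fkbp5) and 29.1 times (Ddit4) the lowest, leaving aside Zbtb16, which had no count in 1 library. Extreme naive values were not particular to the 8 genes. Over all 17015 genes each naive library was the highest of 7 for 18.4% to 21.5%, and each allograft library for 9.28% to 10.5%. Each naive library was the lowest for 11.6% to 31.3%, and each allograft library for 2.19% to 2.95%.

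The receptor gene Nr3c1 (ENSMUSG00000024431, chromosome 18) encodes the glucocorticoid receptor itself. It was at 198, 62.1 and 661 CPM in naive replicates 1 to 3, and at 326, 380, 412 and 445 CPM in allograft replicates 1 to 4. The allografts lay inside the naive range, with naive replicate 2 lowest and naive replicate 3 highest of all 7. With edgeR, allograft over naive came to 0.26 on the log2 scale (SE 0.64, adjusted p = 0.951). Leaving out naive replicate 2 gave -0.20 (SE 0.46), and leaving out naive replicate 3 gave 1.44, so 1 naive library could turn its sign.

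Fkbp5 (ENSMUSG00000024222, chr17:28399094-28517527, minus strand, GRCm38) encodes an immunophilin of the receptor's HSP90 complex that lowers its affinity for hormone, and it is itself a classic receptor target. Its CPM was 139, 31.0 and 77.0 in the naive libraries. Allograft replicates 1 to 4 had 91.9, 110, 105 and 121 CPM. The naive libraries held both the highest and the lowest value. A value of 0.28 on the log2 scale was fitted (SE 0.40, edgeR adjusted p = 0.901), which became -0.06 (SE 0.28) once naive replicate 2 was left out.

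Among the other parts of the receptor machinery no gene passed either. Of 16 chaperone and cofactor genes, 16 were tested and 0 passed in either direction with edgeR, with 0 at an unadjusted p under 0.05 and 0 with DESeq2. Of the 16 fitted changes 13 were positive, and their median log2 fold change was 0.28. The median came to 0.09 without naive replicate 2, where the median of all genes was 0.23. Without naive replicate 3 it came to 0.74, where that of all genes was 0.05. The smallest p-values belonged to Ep300, a histone acetyltransferase and coactivator, Hsp90aa1, the inducible HSP90 chaperone, and Ncor1, a corepressor. Ep300 was at 11.1 to 20.002 CPM in naive and 21.2 to 37.3 CPM in allograft libraries (log2 fold change 0.76, SE 0.45, edgeR adjusted p = 0.679), and its groups did not overlap. Hsp90aa1 had 485 to 2086 CPM in naive and 1831 to 2915 CPM in allograft libraries (0.77, SE 0.49, 0.711). Ncor1 had 109 to 698 CPM and 615 to 931 CPM (0.79, SE 0.52, 0.716), with overlapping groups for both.

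Genes of steroid supply were low, and 6 of 9 passed the filter. None of the 6 passed the test in edgeR (1 lower at an unadjusted p under 0.05, where 3.86% of all genes were, and 0 with DESeq2). Without naive replicate 1, where 0.568% of all genes passed in edgeR, a gene of this list did. It was Cyp11a1, the first enzyme of steroid synthesis, named after its values were seen. It had 17.8, 0 and 0 CPM in naive and 7.80 to 10.9 CPM in allograft libraries (edgeR adjusted p = 0.0474, and 0.967 with all 7). The mineralocorticoid receptor Nr3c2, which binds the same hormones, had 7.32, 69.1 and 36.3 CPM in naive hearts and 2.18 to 13.9 CPM in the allografts (log2 fold change -2.82, SE 0.98, edgeR adjusted p = 0.342; -1.71 without naive replicate 2). Hsd11b2, the enzyme that inactivates glucocorticoids in the distal nephron, had 0.245, 66.0 and 16.7 CPM in naive and 2.89 to 6.46 CPM in allograft libraries (-3.09, SE 1.39, 0.520). Both genes were highest in naive replicate 2, the library with the kidney transcripts, and the part of those transcripts in the difference was not tested. Star, a cholesterol transporter, stayed at or under 1.70 CPM in all 7 libraries (-1.53, SE 1.93, 0.875).

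Tsc22d3 (ENSMUSG00000031431, chrX:140539528-140600659, minus strand, GRCm38) encodes the leucine zipper protein GILZ, a glucocorticoid-induced inhibitor of NF-kB and AP-1. It was at 228, 26.4 and 234 CPM in naive replicates 1 to 3 and at 418, 346, 398 and 346 CPM in allograft replicates 1 to 4. Every allograft library exceeded every naive library, and naive replicate 2 was far below the other naive libraries. The ratio of the means was 2.32, or 1.63 without naive replicate 2. In edgeR its fitted log2 difference, 1.15 (SE 0.59, adjusted p = 0.597), became 0.66 (SE 0.20, adjusted p = 0.134) when naive replicate 2 was left out. Over the 16 other fits it ran from 0.66 to 1.69, with adjusted p from 0.134 to 1.00. Scaled to the summed ILC2 markers of each library, Tsc22d3 stood at 181, 227 and 153 per 10000 CPM of markers in naive and 275 to 322 in allograft libraries, so the groups stayed separate. In that scaling naive replicate 2 was the highest of the naive libraries. The most abundant of the ILC2 markers were Id2, Rora and Areg. The part of kidney transcripts in these scaled values was not tested.

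Ddit4 (ENSMUSG00000020108, chr10:59949669-59951834, minus strand, GRCm38) encodes REDD1, an inhibitor of the growth kinase complex mTORC1 that glucocorticoids, hypoxia and amino acid shortage induce. Its CPM was 20.4, 1.98 and 6.49 in the naive libraries, and 48.2, 49.0, 28.3 and 57.7 in the allografts. The lowest allograft, replicate 3, lay above the highest naive library, replicate 1. Naive libraries averaged 9.62 ± 9.60 CPM (SD, n = 3), and allografts 45.8 ± 12.4 CPM (SD, n = 4). A log2 fold change of 2.20 (SE 0.71, edgeR adjusted p = 0.341, higher in 4 of 4 allografts) was fitted, and one of 1.73 (SE 0.57, 0.173) without naive replicate 2. DESeq2 called it higher (log2 fold change 2.08, adjusted p = 0.0473). Over the 16 other fits the log2 fold change ran from 1.73 to 3.24 and the adjusted p from 0.0473 to 1.00. Per 10000 CPM of ILC2 markers Ddit4 was at 16.2, 17.0 and 4.25 in naive and 22.1 to 46.9 in allograft libraries, again without overlap.

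Hypoxia and the integrated stress response, which are also known to raise Ddit4, were followed through 16 genes, of which 14 were tested. None of the 14 passed in edgeR (1 lower at an unadjusted p under 0.05, where 3.86% of all genes were), and the median log2 fold change was -0.62. The direction was not stable: the median was 0.69 with limma on log2(FPKM + 0.1), where that of all genes was 0.58. With naive replicate 2 left out, 15 were tested. Of these, 2 were higher and 1 lower at an unadjusted p under 0.05 (20.2% of all genes in either direction). With DESeq2 the list had 1 call (6.4% of all genes were called), Ppp1r15a, lower by a log2 fold change of -0.71 (adjusted p = 0.0279). Slc2a1, a glucose transporter, had 67.9 to 98.2 CPM in naive and 48.9 to 70.4 CPM in allograft libraries (-0.71, SE 0.30, edgeR adjusted p = 0.481). Hk2, a hexokinase, had 1.54 to 13.2 and 15.7 to 23.4 CPM without overlap (1.40, SE 0.72, 0.598). Bnip3, a mitophagy receptor induced by hypoxia, was listed at 0 counts in 1 naive and 1 allograft library and reached 239 CPM in naive replicate 2 (-4.59, SE 2.41, 0.609).

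**Figure D3:**
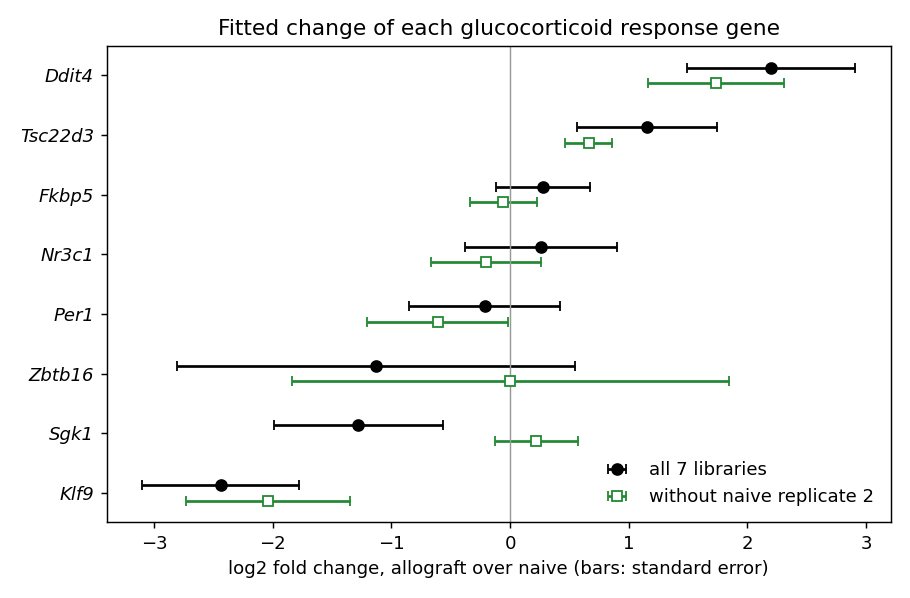
Log2 fold change of allograft over naive for each gene with its standard error, from all 7 libraries (filled) and without naive replicate 2 (open). Ddit4, Tsc22d3 and Klf9 keep their sign and lie more than 1 standard error from 0 in both fits, whereas Sgk1, Nr3c1, Fkbp5 and Zbtb16 change sign.

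Per1 (ENSMUSG00000020893, chr11:69095217-69109960, plus strand, GRCm38) encodes a repressor of the circadian clock that glucocorticoids induce directly. The table holds windows before 2 of its starts, and the one shown was chosen because it holds a clock element. Capitals mark the E-box CACGTG, the site bound by the CLOCK and BMAL1 activators. It begins 166 bases before the start, and 6.02% of 32851 RefSeq promoter windows of 250 bases (GRCm38.p6, the assembly also called mm10) hold it. The stretch lies at chr11:69098699-69098947 on the plus strand.
Per1: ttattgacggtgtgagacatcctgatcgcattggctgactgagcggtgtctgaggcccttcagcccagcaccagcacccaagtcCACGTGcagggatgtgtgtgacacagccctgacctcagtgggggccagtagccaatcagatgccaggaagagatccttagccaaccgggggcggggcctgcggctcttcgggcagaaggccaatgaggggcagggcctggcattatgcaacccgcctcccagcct

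Per1 was at 49.5, 29.8 and 229 CPM in naive replicates 1 to 3 and at 59.8, 101, 107 and 115 CPM in the allografts. The library order among the naive hearts was that of Nr3c1, with replicate 3 highest of all 7 and replicate 2 lowest. The allografts lay inside this range. Per1 had a log2 fold change of -0.21 (SE 0.64, edgeR adjusted p = 0.965). Leaving out naive replicate 2 gave -0.61 (SE 0.59, 0.634), and leaving out naive replicate 3 gave 1.04 (0.221).

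Of 16 other clock genes, 16 were tested and 0 passed in edgeR, with 3 lower and 0 higher at an unadjusted p under 0.05 (3.86% and 6.41% of all genes). The median was -0.48, and 12 of the 16 fitted changes were negative. Those 3 were Nr1d1, Dbp and Tef. Nr1d1, which encodes the repressor REV-ERB alpha, had 43.8, 85.6 and 57.3 CPM in naive and 12.9 to 19.96 CPM in allograft libraries. The groups did not overlap (log2 fold change -2.19, SE 0.45, edgeR adjusted p = 0.144), also without naive replicate 2 (-1.63, 0.0590). DESeq2 called Nr1d1 lower (adjusted p = 8.4e-04), the 1 call of this list, where 6.4% of all genes were called. Dbp, a clock output activator, had 0.320, 56.1 and 42.1 CPM in naive and 3.61 to 5.12 CPM in allograft libraries (-3.38, SE 1.29, 0.400). It passed in edgeR without naive replicate 1 (-3.94, 0.0328), where 0.568% of all genes did. Tef, a related activator, had 22.2 to 39.8 and 0.465 to 11.9 CPM (-2.73, SE 1.08, 0.426). The labels give no hour of collection.

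Klf9 (ENSMUSG00000033863, chr19:23141226-23168134, plus strand, GRCm38) encodes a Krüppel-like repressor induced by glucocorticoids and by the clock. It was at 21.0, 123 and 157 CPM in naive replicates 1 to 3. In the allografts it was at 20.4, 23.8, 27.6 and 19.1 CPM. Naive replicates 2 and 3 were high, while naive replicate 1 lay within the allograft range, so the groups overlapped. Klf9 had a log2 fold change of -2.44 (SE 0.66, edgeR adjusted p = 0.235), and -2.04 (SE 0.69, 0.183) without naive replicate 2. In naive replicate 3 the ILC2 markers summed to 15288 CPM. The kidney markers summed to 550 CPM there, against 125 to 171 CPM in naive replicate 1 and the allografts. The part of kidney transcripts in the Klf9 levels was not tested. Klf9 passed in edgeR without naive replicate 1 (-2.92, adjusted p = 0.0232, where 0.568% of all genes passed) and with DESeq2 (-2.70, adjusted p = 0.0204). Over the 16 other fits the log2 fold change ran from -2.92 to -1.59.

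Sgk1 (ENSMUSG00000019970, chr10:21882184-21999903, plus strand, GRCm38) encodes the serum and glucocorticoid regulated kinase, best known for raising sodium uptake in the kidney. The sequence before one of its starts is shown because it holds a complete response element. The element is AGAACA, then any 3 bases, then TGTTCT, and both strands were searched. Capitals mark it and a lone TGTTCT, one arm of the element. The complete element begins 189 bases before the start, and the lone arm 242 bases before it. The lone arm overlaps an E-box that begins at 246 bases. Of 32851 windows, 3 (0.00913%) hold the complete element, and 16.1% hold at least 1 arm, those of complete elements included. Among the members, 6 have windows in the RefSeq table, 14 in all, and this 1 window holds the complete element. The stretch lies at chr10:21993640-21993889 on the plus strand, and no annotated exon of Sgk1 overlaps it.
Sgk1: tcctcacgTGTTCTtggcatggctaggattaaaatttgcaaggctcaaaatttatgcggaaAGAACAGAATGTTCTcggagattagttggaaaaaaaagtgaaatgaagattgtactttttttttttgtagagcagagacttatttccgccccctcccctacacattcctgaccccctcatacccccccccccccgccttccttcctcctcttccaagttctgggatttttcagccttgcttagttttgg

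Sgk1 was at 28.96, 140 and 32.9 CPM in naive replicates 1 to 3 and at 28.1, 49.9, 32.1 and 39.4 CPM in the allografts. Naive replicate 2 alone was high, and the other 6 libraries lay within 28.1 to 49.9 CPM. Its fitted log2 fold change was -1.28 (SE 0.71, edgeR adjusted p = 0.645). Without naive replicate 2 it was 0.22 (SE 0.35, 0.792), and the naive mean moved from 67.2 to 30.9 CPM.

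Of the 14 member windows, 4 held at least 1 arm on either strand. They were the Sgk1 window shown, windows before other Sgk1 starts, and the window before the distal start of Tsc22d3. No window of Ddit4, Fkbp5, Klf9 or Per1 held one. The Tsc22d3 stretch is shown for comparison with Sgk1, with its single TGTTCT in capitals. This arm begins 185 bases before the RefSeq start. The stretch lies at chrX:140600660-140600772 on the minus strand and ends where annotated transcripts begin. The last 137 bases before the RefSeq start lie in annotated exons and are not shown. A match is a run of letters, and binding was not measured.
Tsc22d3: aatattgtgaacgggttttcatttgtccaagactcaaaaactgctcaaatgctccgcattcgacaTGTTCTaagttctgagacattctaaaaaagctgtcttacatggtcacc

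Zbtb16 (ENSMUSG00000066687, chr9:48654297-48836222, minus strand, GRCm38) encodes PLZF, a transcription factor of innate lymphoid precursors and natural killer T cells that glucocorticoids induce in many cell types. It was the least abundant of the 8, at 0, 13.3 and 8.17 CPM in the naive libraries. In the allografts it was at 3.98, 2.93, 3.70 and 6.66 CPM. The value 0 is a count of 0, which allows up to 0.0566 CPM in naive replicate 1 by counting error alone. The other 2 naive libraries exceeded every allograft. Zbtb16 had a log2 fold change of -1.13 (SE 1.67, edgeR adjusted p = 0.906), or 0.0034 (SE 1.84) without naive replicate 2.

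**Figure D4:**
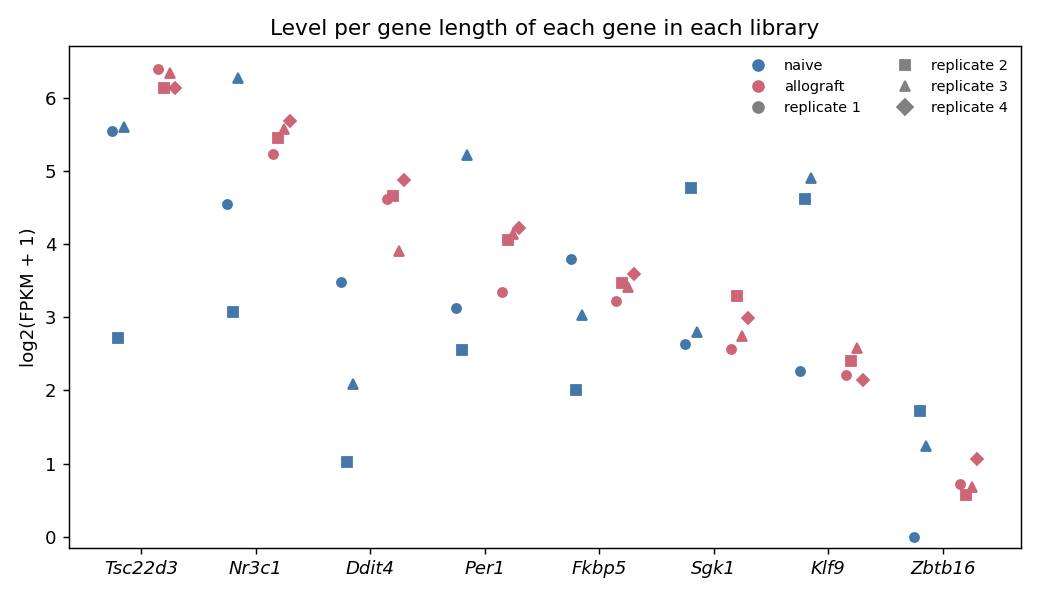
Level per gene length of the 8 genes in each library, as log2(FPKM + 1), ordered by the allograft mean; symbols are libraries. In the allografts Tsc22d3 and Nr3c1 lie above the other 6 genes, and Zbtb16 lies below them.

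Levels between genes were compared per gene length, as the FPKM of the authors, fragments scaled to transcript length and library total. In the allografts the order was Tsc22d3 (75.0 ± 7.17 FPKM, SD, n = 4), Nr3c1 (44.0 ± 5.86), Ddit4 (22.5 ± 6.09), Per1 (14.8 ± 3.83), Fkbp5 (9.77 ± 1.13), Sgk1 (6.60 ± 1.70), Klf9 (4.07 ± 0.694) and Zbtb16 (0.704 ± 0.266). Tsc22d3 and Nr3c1, Nr3c1 and Ddit4, and Klf9 and Zbtb16 did not overlap between neighbours. The other neighbours overlapped, so their order is not fixed by these libraries. In the naive libraries Nr3c1 (35.3 ± 36.0 FPKM, SD, n = 3) and Tsc22d3 (33.0 ± 23.8) were again the highest by the mean. Klf9 was at rank 3 there (18.7 ± 13.1) and at rank 7 in the allografts. Ddit4 was at rank 7 there (4.82 ± 4.76) and at rank 3 in the allografts. Without naive replicate 2 the naive mean was 16.3 FPKM for Klf9, at rank 4, and 6.71 FPKM for Ddit4, at rank 6.

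Other genes that glucocorticoids are known to induce were followed through a list of 30, all tested. None passed in edgeR, with 4 lower and 0 higher at an unadjusted p under 0.05 (3.86% and 6.41% of all genes). The median log2 fold change was -0.53, and 22 of the 30 fitted changes were negative. This direction depended on the fit: with limma on log2(FPKM + 1) the median was 0.47 over 24 genes. That of all genes was 0.35 in that fit. Without naive replicate 2 there were 7 higher and 8 lower at an unadjusted p under 0.05 (20.2% of all genes in either direction). DESeq2 called 2 lower, Rhob and Arrdc2, where 6.4% of all genes were called in either direction. Rhob, a small GTPase, had 51.1, 48.5 and 86.6 CPM in naive and 28.0 to 41.6 CPM in allograft libraries without overlap (-1.12, SE 0.34, edgeR adjusted p = 0.299). Cebpd, a transcription factor, had 7.62, 104 and 16.7 CPM in naive and 4.50 to 14.4 CPM in allograft libraries (-2.91, SE 1.03, 0.344), or -0.67 once naive replicate 2 was left out. Arrdc2, an arrestin-like gene, had 9.41 to 22.9 and 4.47 to 9.87 CPM (-1.51, SE 0.62, 0.455).

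Without naive replicate 2, where 3.1% of all genes passed in edgeR, 3 genes of this list did, all higher in allografts: the metallothioneins Mt1 and Mt2, which bind zinc and copper, and Bmf, a pro-apoptotic gene. These 3 were named after their values were seen. Mt1 had 89.2, 482 and 66.2 CPM in naive and 198 to 224 CPM in allograft libraries. The edgeR log2 fold change was 1.41 (adjusted p = 0.0429) without naive replicate 2 and -0.46 (0.925) with it. For Mt2 the 2 values were 1.82 (0.0433) and 0.22 (0.968). Bmf had no count in naive replicates 1 and 3, 66 in naive replicate 2 and 39 to 102 counts in the allografts. Without naive replicate 1, where 0.568% of all genes passed, another gene of the list did. It was Il1r2, a decoy receptor for interleukin-1, also named after its values were seen. It had 948, 4.68 and 16.8 CPM in naive and 210 to 325 CPM in allograft libraries (log2 fold change 4.42, edgeR adjusted p = 0.0458, and -0.29, 0.979 with all 7). The summed CPM of the 30 genes was highest in naive replicate 3 (41014) and lowest in naive replicate 2 (4728), with 19333 to 23046 in the allografts. Nfkbia and Dusp1, inhibitors of NF-kB and of MAP kinases and named after their values were seen, had the same highest and lowest library, with 15046 and 6289 CPM in naive replicate 3.

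Cytokine and inflammatory genes that glucocorticoids are known to repress made a list of 15, all tested. None passed in edgeR, with 2 higher (6.41% of all genes) and 0 lower (3.86%) at an unadjusted p under 0.05 and 0 calls by DESeq2. The median log2 fold change was 1.03, and 12 of the 15 fitted changes were positive. Without naive replicate 2 the median was 0.55, where that of all genes was 0.23. Leaving out that library gave 3 higher and 2 lower at an unadjusted p under 0.05 (20.2% of all genes in either direction). For 8 of the 15 every allograft lay above every naive library (12.5% of all genes). Icam1, an adhesion molecule, had 28.8, 51.3 and 49.6 CPM in naive and 141 to 163 CPM in allograft libraries (1.51, SE 0.38, edgeR adjusted p = 0.196). It passed without naive replicate 2 (1.87, 0.0437), where 3.1% of all genes did. Ccl5, a chemokine, had 16.0 to 96.6 and 154 to 177 CPM (1.79, SE 0.62, 0.342). Ifng, the interferon of type 1 lymphocytes, had no count in naive replicates 1 and 3, 1.85 CPM in naive replicate 2 and 14.4 to 23.5 CPM in the allografts (adjusted p = 0.579, and 0.0234 without naive replicate 2). NK cell markers, given above, were also higher in every allograft, while T cell markers overlapped with naive replicate 3. Their part in these cytokine values was not tested. Il5 and Il13 belong both to this list and to the ILC2 markers. Naive replicate 2 had the lowest sum of both lists, at 258 CPM for this list and 1163 CPM for the ILC2 markers. The part of its low ILC2 level in these values was not tested.

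**Figure D5:**
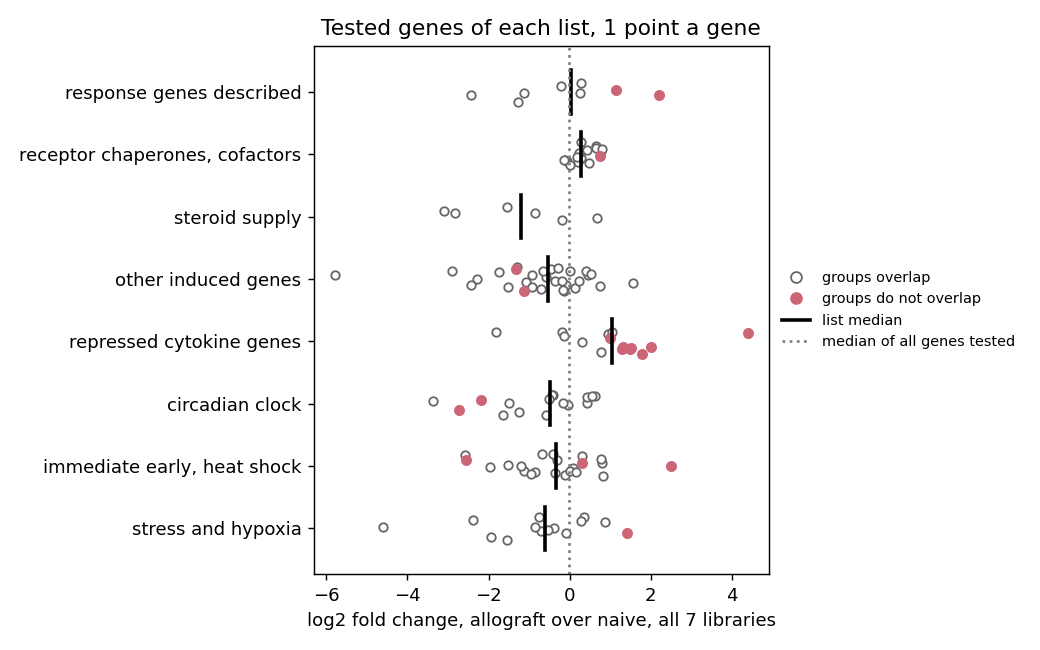
Log2 fold change of each tested gene (1 point a gene) in the 8 described genes and the 7 other lists, all 7 libraries; filled points are genes whose groups do not overlap, black bars list medians and the dotted line the median of all genes (-0.01). The list of repressed cytokine genes has the highest median (1.03) and steroid supply the lowest (-1.19).

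Immediate early and heat shock genes, which tissue digestion is known to induce, were counted because several response genes share their triggers. Of 22 genes, 22 were tested and 0 passed in edgeR. At an unadjusted p under 0.05 there were 4 lower and 0 higher, against 3.86% and 6.41% of all genes. DESeq2 called 1, Egr1, lower, where 6.4% of all genes were called. The count at an unadjusted p turned to 3 higher and 2 lower without naive replicate 2 (20.2% of all genes in either direction). There 1 gene passed, higher, where 3.1% of all genes did. It was Egr3, a zinc finger factor named after its values were seen, at 0.0377, 2.13 and 0 CPM in naive and 4.22 to 7.32 CPM in allograft libraries (edgeR adjusted p = 0.0450, and 0.760 with all 7 libraries). The list's median was -0.34. Leaving out naive replicate 2 gave -0.76, leaving out naive replicate 3 gave 0.55, and limma on log2(FPKM + 1) gave 0.31. In the same order, the median of all genes in these fits was 0.23, 0.05 and 0.35. Their summed CPM was 10980, 10918 and 39030 in naive replicates 1 to 3 and 15021 to 18639 in the allografts, so naive replicate 3, the library with the highest Nr3c1, Per1 and Klf9, was the highest here too. Egr1, a zinc finger factor, had 153, 894 and 501 CPM in naive and 94.7 to 134 CPM in allograft libraries without overlap (-2.56, SE 0.66, edgeR adjusted p = 0.197). Ier3, a stress-induced gene, had 14.5 to 166 and 11.9 to 23.8 CPM (-2.57, SE 0.86, 0.341). Btg2, an antiproliferative gene, had 355 to 1408 and 382 to 470 CPM (-1.20, SE 0.49, 0.448). The part of digestion in the response genes was not tested.

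The genes most like each member over the 7 libraries were found by Pearson's r of log2 CPM among those with an average log2 CPM of at least 5, as a description. For Nr3c1 the first was Sf3b1 (0.998), and 127 of 4923 genes had an r above 0.95. For Tsc22d3 they were Snx20 and Gm15710 (both 0.996), with 263 genes above 0.95. For Ddit4 they were Gm10076 (0.997) and Gm10736 (0.993). Per1 was most like Zfp592 (0.995) and 5330406M23Rik (0.987), and Fkbp5 most like Sema4d (0.989) and Ncapd3 (0.986). For Klf9 they were Mkln1 (0.994) and Ddrgk1 (0.988). For Sgk1 they were Ctnnb1 (0.990) and Aldh1l1 (0.972), of which Aldh1l1 had 342 CPM in naive replicate 2 and at most 21.8 CPM elsewhere. For Zbtb16 they were Slc5a3 (0.987) and the kidney marker Aqp2 (0.986). Aqp2 had 993 CPM in naive replicate 2, and 0 and 164 CPM in naive replicates 1 and 3.

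Without naive replicate 2 the gene in first place changed for all members but 3, and the gene in second place for every member. Ddit4 kept Gm10076 (0.995), Per1 kept Zfp592 (0.996) and Fkbp5 kept Sema4d (0.989) in first place. The first was Sdf4 (0.994) for Tsc22d3, Aplp2 (0.999) for Nr3c1, Gstm1 (0.997) for Klf9, Anp32a (0.971) for Sgk1 and Noc2l (0.995) for Zbtb16. These values share 6 or 7 libraries, and many genes reach them.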

How the data were processed

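The authors deposited whole-number counts per gene and FPKM for the same 55335 identifiers and 7 libraries. FastQC 0.11.5, STAR 2.5.3a, StringTie 1.3.1c, DESeq2 1.16.1 and mm10 are named, without roles, per the submitters' processing notes. The annotation and use of strand are not given in the sources used here. Full-length cDNA was amplified before sequencing, per the labels' protocols, without molecular identifiers, so counting limits cover counting error only. FPKM over CPM was constant per gene over 7340 genes (SD of the log2 ratio at most 0.00352). No member shared exon bases with another GENCODE M21 gene.

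Counts were fitted with edgeR 4.0.16 (R 4.3.3): quasi-likelihood test, TMM, filterByExpr, Benjamini-Hochberg at 0.05 over 17015 genes, all 7 libraries, no covariate. Alternatives were DESeq2 1.42.0, its size factors, total scaling, scaling without mitochondrial genes, other filters (none, mean of 50 counts), limma 3.58.1 on log2(FPKM + 1) and log2(FPKM + 0.1) for genes with FPKM of at least 1 in 3 libraries, a replicate block, and each library left out. Scaling to ILC2 markers was added after seeing the data. Marker sums were compared by exact permutation over 35 splits on log2(CPM + 0.1). The fits were tested on simulated data.

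The members and lists were chosen with earlier results of these data known. Named were all members, the 3 genes of smallest p in each of 7 response lists (124 genes), the 3 most abundant markers where a list is described, and the 2 genes most like each member (log2 CPM with prior count 2), of which 1 is not reported here. Promoter sequences are RefSeq's (GRCm38.p6). The 11 marker lists were those of ILC2s, other lymphocytes (T, B, NK), myeloid, mast and erythroid cells, heart muscle, vessel and stroma, and kidney.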

Additional observations from a re-analysis of the deposited data

Results flagged for a closer look

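In the 4 allograft libraries, 26 values (the 8 genes and the sums of 18 lists) were examined for a library whose gap to its nearest neighbour fills most of the range. This held for 2 of them, and chance alone gives about 1.3. The summed B cell markers were 319.7 CPM in allograft replicate 4 against 471.1 to 488.2 CPM in the others. The summed myeloid markers were 316.4 CPM in allograft replicate 1 against 195.1 to 206.3 CPM in the others. None of the 8 response genes was among them.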

How the results depend on the processing

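Ddit4 and Tsc22d3 (higher) and Klf9 (lower) kept their direction in all 16 other fits and in the scaling to ILC2 markers. The number of the 8 genes passing was 2 with DESeq2 (which gave no adjusted p for Sgk1) and 0 to 1 over the fits that leave out 1 library. All genes passing were 6 in the fit as reported, 1224 with DESeq2, 144 and 168 with limma at pseudocounts 1 and 0.1, and 0 to 560 leaving out 1 library. Genes of the 7 response lists passing were 0 as reported, 5 with DESeq2, 1 with limma at each pseudocount and 0 to 6 leaving out 1 library.

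The log2 fold change of Per1 was 0.31 and 0.37 with limma at pseudocounts 1 and 0.1 and -0.61 to 1.04 leaving out 1 library. That of Zbtb16 was 0.13 with limma at pseudocount 0.1 and -1.70 to 0.0034 leaving out 1 library. The range over single libraries was -0.20 to 1.44 for Nr3c1, -0.056 to 0.76 for Fkbp5 and -1.68 to 0.22 for Sgk1. Relative to ILC2 markers the values were -0.11 for Nr3c1, -0.44 for Fkbp5 and 0.97 for Zbtb16. The cause of these shifts was not tested. The value for Zbtb16 includes the count of 0 in naive replicate 1, to which a small constant was added before the log. Per 10000 CPM of ILC2 markers Zbtb16 was at 0, 114 and 5.34 in naive replicates 1 to 3. In the allografts it was at 2.33 to 5.42, so the groups overlapped. The median of all genes, -0.01 as reported, was -0.20 with DESeq2's size factors, 0.17 with total scaling, and 0.35 and 0.58 with limma, where the induced and immediate early lists had positive medians at both pseudocounts (0.47 and 0.48, and 0.31 at each) and the stress (0.69) and steroid supply lists (0.018) at 0.1.

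With the replicate number as a block, which leaves allograft replicate 4 without a partner and so without weight, 0 genes passed and Per1 was at 0.11. The medians of the induced (0.08), clock (0.04), immediate early (0.18) and stress lists (0.12) were then positive, as was that of all genes (0.55). The deviations of same-numbered libraries from their group means had correlations of 0.02, -0.02 and 0.04. With naive replicate 2 so far from the other naive libraries, these values cannot decide whether the numbers mark pairs. Of the 3 naive libraries only replicate 3 correlated best with its own number.

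Among the marker sums, the log2 difference of allograft minus naive changed sign when 1 library was left out for ILC2 (-0.13 to 1.73), myeloid (-0.62 to 3.11), mast cell (-0.62 to 1.52), cardiomyocyte (-1.91 to 1.87, and -0.0093 by the mean of logs), endothelial (-2.06 to 0.20) and fibroblast markers (-1.88 to 3.03). The kidney difference ran from -4.19 to -0.79, the erythroid from -1.46 to -0.50, and T, B and NK cell differences stayed positive. Counting error was small beside the spread among the naive libraries except at levels near 0.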
